A study of Sus scrofa with 11 samples.

Results

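Genes linked to neutrophils, the granulocytes that arrive early at an injured or infected tissue, were followed in carotid artery of pigs (Sus scrofa). They are FFAR2, CSF3R, S100A8, S100A9, S100A12, PGLYRP1, LTF and MMP8, 8 of the 35670 genes in the count table. They were picked by name, with earlier results of the same comparison known. The differences between the groups are therefore given as a description of these animals and not as a test.

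The animals ate a high-fat, high-calorie diet for 12 weeks and were infused into a vein every week, under general anaesthesia, with 400 nM of nanotubes. The SWNT-SHP1i group received single-walled carbon nanotubes loaded with an inhibitor of SHP-1, a phosphatase of blood cells that relays signals of inhibitory receptors, in a design aimed at macrophages, and the SWNT group received the same nanotubes without it. Both groups shared the diet and the carrier, so no untreated artery was compared. The labels give no age, sex, breed or batch. RNA of whole artery was sequenced after poly-A selection in 5 SWNT-SHP1i and 5 SWNT animals, named here by replicate numbers given in accession order, while a further SWNT-SHP1i animal (replicate 4), labelled as having died before harvest, was not analysed here. In whole tissue, fewer cells of a type and less RNA per cell cannot be told apart.

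Neutrophils are made in bone marrow under granulocyte colony-stimulating factor, whose receptor is CSF3R, and they fill their granules with enzymes and antimicrobial proteins while still immature. Messages of many granule proteins are abundant in these precursors and scarce in circulating cells, whereas S100A8, S100A9, S100A12 and CSF3R remain abundant in mature cells. In human and mouse neutrophils FFAR2 senses the short-chain fatty acids that gut bacteria release and steers movement towards them. None of these genes belongs to neutrophils alone: S100A8, S100A9 and CSF3R are also found in monocytes, FFAR2 in other leukocytes and fat cells, and LTF and the S100 genes in epithelia.

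Total counts ranged from 27593564 to 39413481 reads in SWNT-SHP1i libraries and from 32931527 to 47718854 in SWNT libraries. SWNT-SHP1i replicates 3 and 6 and SWNT replicate 3 stood apart from the rest. SWNT-SHP1i replicate 3 had 8.61% of its reads on mitochondrial genes, against 1.16% to 2.97% in the other 9. It had 14497 genes with a read, against 17259 to 19942. SWNT replicate 3 had 17259 genes with a read and 2.97% of its reads on mitochondrial genes. For SWNT-SHP1i replicate 6 these values were 17691 and 2.55%. Counts from 1 to 99 were even numbers more often in SWNT-SHP1i replicates 3 (84.7%) and 6 (79.8%) and SWNT replicate 3 (82.8%) than in the other 7 libraries (72.9% to 74.5%). Levels are given in CPM, the read count scaled to a fixed library size after TMM normalization. Summed markers of arterial smooth muscle (10 of 10 with reads) lay between 19977 and 51631 CPM in SWNT-SHP1i and between 42242 and 62453 CPM in SWNT, with the lowest sum in SWNT-SHP1i replicate 6. By the labels, the animals of SWNT-SHP1i replicate 3 and SWNT replicate 3 carry numbers of another range than the other 8, and the labels do not say what the range marks. Where a fold change of a member or a listed gene is given, it is given with and without SWNT-SHP1i replicates 3 and 6.

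Of 11 neutrophil markers, 8 were found by symbol and all 8 had reads, at summed levels of 23.7 to 103.9 CPM in SWNT-SHP1i and 18.4 to 37.9 CPM in SWNT. ITGAM, the integrin chain that macrophages share, made up 14.05% to 91.3% of that sum in SWNT-SHP1i, lowest in replicate 6, and 63.9% to 86.7% in SWNT. The chemokine receptor CXCR2 stood at 6.33, 0.684, 1.52, 0.480 and 3.24 CPM in SWNT-SHP1i replicates 1, 2, 3, 5 and 6, against 1.23, 0.944, 0.357, 2.46 and 0.0599 CPM in SWNT replicates 1 to 5, a log2 fold change of 1.28 (1.30 without SWNT-SHP1i replicates 3 and 6). CD177, a surface protein of neutrophils, had reads in a single library, SWNT-SHP1i replicate 6, at 0.749 CPM. The neutrophil label thus rests on low levels, and the 8 genes are described below as genes, not as a count of cells.

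On the Sscrofa11.1 build the members sit on chromosomes 4, 6, 9 and 13. FFAR2 (ENSSSCG00000032438) spans 44901159 to 44904459 on chromosome 6, CSF3R (ENSSSCG00000025795) 92550161 to 92565477 and PGLYRP1 (ENSSSCG00000038688) 52318531 to 52322638 on the same chromosome. S100A8 (ENSSSCG00000006590, 96209659 to 96210602), S100A12 (ENSSSCG00000032857, 96225691 to 96227127) and S100A9 lie within 29755 bases of chromosome 4. S100A9 carried no symbol in the table: ENSSSCG00000006588 (96236115 to 96239413) was matched to it by position, with 0.871 of the joint span shared with the RefSeq gene. LTF (ENSSSCG00000029879) spans 29413886 to 29445739 on chromosome 13 and MMP8 (ENSSSCG00000029675) 33384033 to 33396947 on chromosome 9. None of the 8 had an exon overlapping that of another annotated gene, on either strand.

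Of the 8 members, 5 (FFAR2, CSF3R, S100A8, S100A9 and PGLYRP1) passed the filter on low counts and S100A12, LTF and MMP8 did not. S100A8 passed with 10 or more reads in 3 SWNT-SHP1i and 2 SWNT libraries. No member was called by edgeR's quasi-likelihood test at an adjusted p under 0.05, where 0% of the 15930 genes tested were called (smallest adjusted p = 0.997) and 739 had an unadjusted p under 0.05. DESeq2 also called 0 genes, a background of 0%, with 986 at an unadjusted p under 0.05. With a threshold of 0.1, combined with DESeq2 after the data were seen, 15 genes were called (0.0942%), all higher in SWNT-SHP1i. FFAR2 and PGLYRP1 were among them at an adjusted p = 0.063 each in DESeq2. Genes outside the members that shared this value were CKM, TRPV4, SLC7A8, CD163, HMOX1 and a gene without a symbol. At an unadjusted p under 0.05 in edgeR, 4 of the 5 were higher, against 3.49% of all genes tested. Because this contrast chose the members, nothing is read from these counts.

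FFAR2 was highest in SWNT-SHP1i replicates 3, 6 and 1. Its level in SWNT-SHP1i replicates 1, 2, 3, 5 and 6 was 9.40, 1.76, 16.6, 0.749 and 10.02 CPM, from 370, 72, 612, 25 and 241 reads. In SWNT replicates 1 to 5 it was 1.16, 1.47, 0.581, 1.03 and 0.479 CPM, from 51, 50, 26, 41 and 16 reads. So 4 of 5 SWNT-SHP1i libraries lay above every SWNT library, replicate 2 by a small margin, and replicate 5 lay inside the SWNT range. The mean was 7.71 ± 6.55 CPM in SWNT-SHP1i and 0.944 ± 0.413 CPM in SWNT (SD, n = 5 each), and the fitted log2 fold change was 3.03 ± 0.74 (SE). Without replicates 3 and 6 the SWNT-SHP1i mean was 3.97 ± 4.73 CPM (SD, n = 3) and the log2 fold change 2.07 ± 0.71 (SE). That remaining difference came mostly from replicate 1.

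CSF3R showed the same 3 libraries on top, in another order. Its level was 15.9, 3.40, 17.2, 1.23 and 43.5 CPM in SWNT-SHP1i replicates 1, 2, 3, 5 and 6, against 5.99, 1.83, 1.61, 4.04 and 3.05 CPM in SWNT replicates 1 to 5. Replicates 1, 3 and 6 exceeded every SWNT library, while replicate 5 was below all of them, so the groups overlapped at both ends. The log2 fold change was 2.29 ± 0.77 (SE) with all libraries and 1.05 ± 0.72 without SWNT-SHP1i replicates 3 and 6. Both receptors were above every SWNT library in at least 3 of 5 SWNT-SHP1i libraries, as was PGLYRP1, a pattern that 10.7% of all genes tested showed. No member had every SWNT-SHP1i library above every SWNT library, which 0.0816% of genes did.

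**Figure D1:**
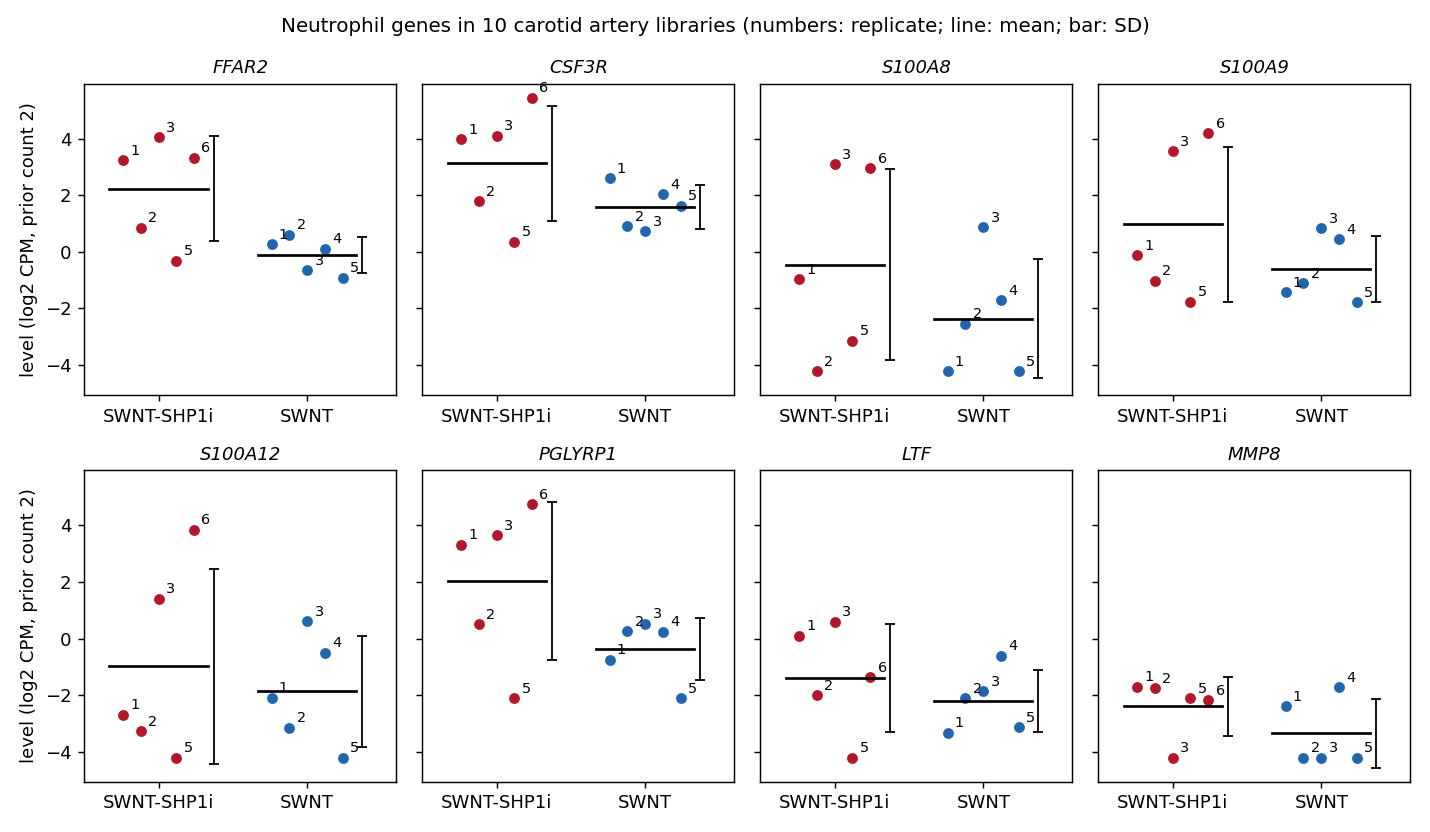
Level of each of the 8 genes (vertical axis, log2 CPM with a prior count of 2) in SWNT-SHP1i (left, red) and SWNT (right, blue) libraries; each point is 1 animal with its replicate number, the line is the mean and the bar the SD (n = 5). FFAR2, CSF3R and PGLYRP1 have SWNT-SHP1i replicates 1, 3 and 6 above every SWNT library, whereas S100A8, S100A9 and S100A12 have only replicates 3 and 6 there.

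PGLYRP1, which binds and kills bacteria through their peptidoglycan, followed the 2 receptors. It stood at 9.96, 1.37, 12.5, 0.180 and 27.0 CPM in SWNT-SHP1i replicates 1, 2, 3, 5 and 6 and at 0.545, 1.15, 1.38, 1.13 and 0.180 CPM in SWNT replicates 1 to 5. Replicates 1, 3 and 6 were far above the SWNT libraries, replicate 2 was just under the highest of them and replicate 5 was level with the lowest. The mean was 10.2 ± 10.8 CPM in SWNT-SHP1i and 0.878 ± 0.498 CPM in SWNT (SD, n = 5 each), with a log2 fold change of 3.53 ± 1.01 (SE), or 2.12 ± 0.98 without SWNT-SHP1i replicates 3 and 6.

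The calgranulins, small calcium-binding proteins that leukocytes release as alarm signals, had another pattern. S100A8 stood at 0.457, 0, 8.47, 0.0600 and 7.74 CPM in SWNT-SHP1i replicates 1, 2, 3, 5 and 6, against 0, 0.118, 1.79, 0.251 and 0 CPM in SWNT replicates 1 to 5. S100A9, its partner in the heterodimer calprotectin, stood at 0.864, 0.440, 11.7, 0.240 and 18.4 CPM in the same SWNT-SHP1i libraries, against 0.318, 0.413, 1.74, 1.30 and 0.239 CPM in the SWNT libraries. Both were high in SWNT-SHP1i replicates 3 and 6, next highest in SWNT replicate 3, and within the SWNT range in SWNT-SHP1i replicates 1, 2 and 5. A count of 0 allows up to 3 reads, which is 0.067 to 0.125 CPM in these libraries. If both mates of a pair were counted, which the mostly even low counts leave possible, the limit is 6 reads, or 0.134 to 0.250 CPM.

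The fitted log2 fold changes were 2.93 ± 1.68 for S100A8 and 2.96 ± 1.14 for S100A9 (SE). Without SWNT-SHP1i replicates 3 and 6 both turned negative, to -1.31 ± 1.71 and -0.64 ± 0.81. Without SWNT replicate 3, the SWNT library with most S100A8, that of S100A8 was 5.12 and that of S100A9 was 3.46. The direction for these 2 genes thus rested on 2 animals. For FFAR2, CSF3R and PGLYRP1 it was the same without them, but it then came mostly from SWNT-SHP1i replicate 1. In SWNT-SHP1i replicates 2 and 5, CSF3R (3.40 and 1.23 CPM) and PGLYRP1 (1.37 and 0.180 CPM) did not exceed the SWNT range.

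S100A12, a ligand of the receptor AGER, was the most uneven of the calgranulins. Its level was 0.102, 0.0489, 2.61, 0 and 14.3 CPM in SWNT-SHP1i replicates 1, 2, 3, 5 and 6, against 0.182, 0.0590, 1.47, 0.652 and 0 CPM in SWNT replicates 1 to 5. Of 447 reads in SWNT-SHP1i, 345 came from replicate 6. Without replicates 3 and 6 the remaining SWNT-SHP1i animals averaged 0.0502 ± 0.0508 CPM (SD, n = 3), against 0.473 ± 0.615 CPM in SWNT (n = 5).

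**Figure D2:**
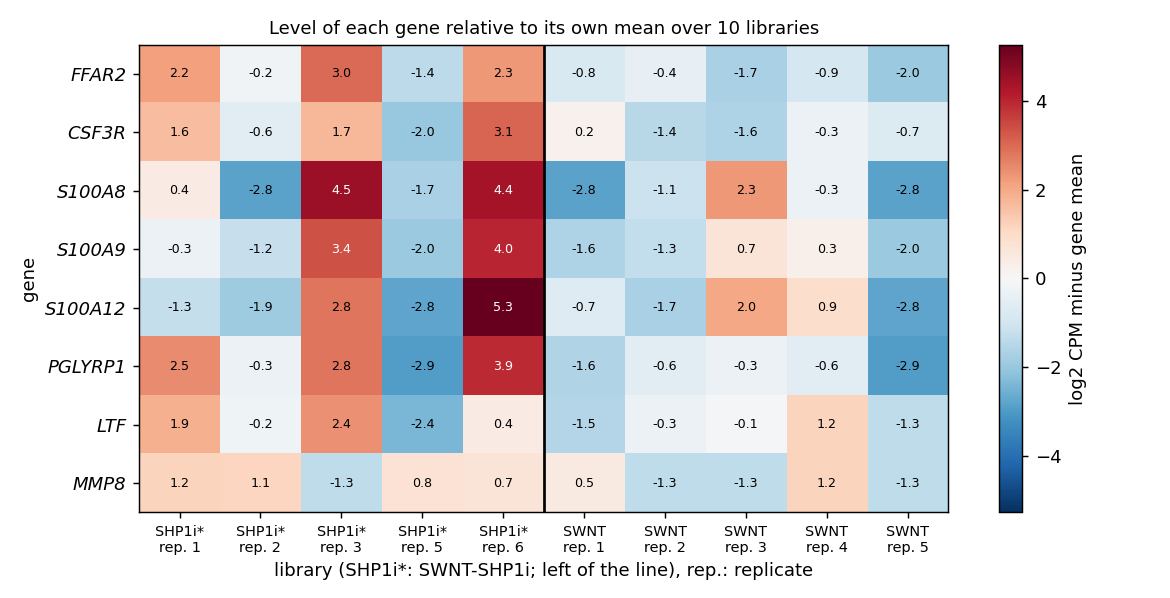
Level of each gene (rows) in each library (columns, SWNT-SHP1i left of the line, SWNT right of it), as log2 CPM minus that gene's mean over the 10 libraries; red is above and blue below the mean. SWNT-SHP1i replicate 1 is well above the mean for FFAR2, CSF3R, PGLYRP1 and LTF and near or below it for the 3 S100 genes, and SWNT replicate 3 is above it for the S100 genes alone.

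Levels per length set the members side by side within a library. In SWNT-SHP1i replicate 6, PGLYRP1 stood at 33.03 CPM per kb, S100A12 at 31.3, S100A9 at 19.98, S100A8 at 19.5, CSF3R at 14.002 and FFAR2 at 3.97. In SWNT-SHP1i replicate 1, PGLYRP1 stood at 12.2, CSF3R at 5.10 and FFAR2 at 3.73 CPM per kb, but S100A8 at 1.16, S100A9 at 0.939 and S100A12 at 0.221. FFAR2 was thus at about the same level per kb in these 2 animals. CSF3R and PGLYRP1 were higher in replicate 6 than in replicate 1, and the calgranulins differed most widely.

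The ratio of S100A9 to FFAR2 per kb was 0.252, 0.686, 1.93, 0.878 and 5.03 in SWNT-SHP1i replicates 1, 2, 3, 5 and 6, against 0.753, 0.768, 8.23, 3.48 and 1.37 in SWNT replicates 1 to 5. The lowest ratio was that of SWNT-SHP1i replicate 1 and the highest that of SWNT replicate 3, and the groups overlapped. The ratio of PGLYRP1 to CSF3R per kb was 2.39, 1.54, 2.77, 0.558 and 2.36 in SWNT-SHP1i replicates 1, 2, 3, 5 and 6. It ran from 0.224 to 3.28 in SWNT libraries. The values were close in SWNT-SHP1i replicates 1, 3 and 6, which are singled out because both genes were high there.

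The last 2 members, proteins of the specific granules, were barely detected. LTF, the iron-binding lactoferrin, ranged from 0 to 1.47 CPM in SWNT-SHP1i (110 reads in all) and from 0.0454 to 0.602 CPM in SWNT (44 reads). Its highest libraries were SWNT-SHP1i replicates 3 and 1, with 54 and 40 reads, while SWNT-SHP1i replicate 6, highest for 4 of the 8 members, had 8. Its mean was 0.602 ± 0.616 CPM in SWNT-SHP1i (SD, n = 5), or 0.404 ± 0.539 CPM without replicates 3 and 6 (n = 3), against 0.222 ± 0.226 CPM in SWNT (n = 5). MMP8, the neutrophil collagenase, had 30 reads in SWNT-SHP1i and 16 in SWNT and was at 0 in SWNT-SHP1i replicate 3 and in SWNT replicates 2, 3 and 5. Its mean was 0.169 ± 0.102 CPM in SWNT-SHP1i, or 0.226 ± 0.0404 CPM without replicates 3 and 6, against 0.0774 ± 0.114 CPM in SWNT. At this depth no difference in MMP8 was detectable.

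Across the 8 members, SWNT-SHP1i replicate 3 was among the top 3 libraries for 7, replicate 6 for 6 and replicate 1 for 5. SWNT replicate 3 was among them for 3 members, all of them calgranulins. SWNT-SHP1i replicate 5 and SWNT replicate 5 were in the 3 lowest ranks for 6 members each, so the animals with least of these messages came from both groups.

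**Figure D3:**
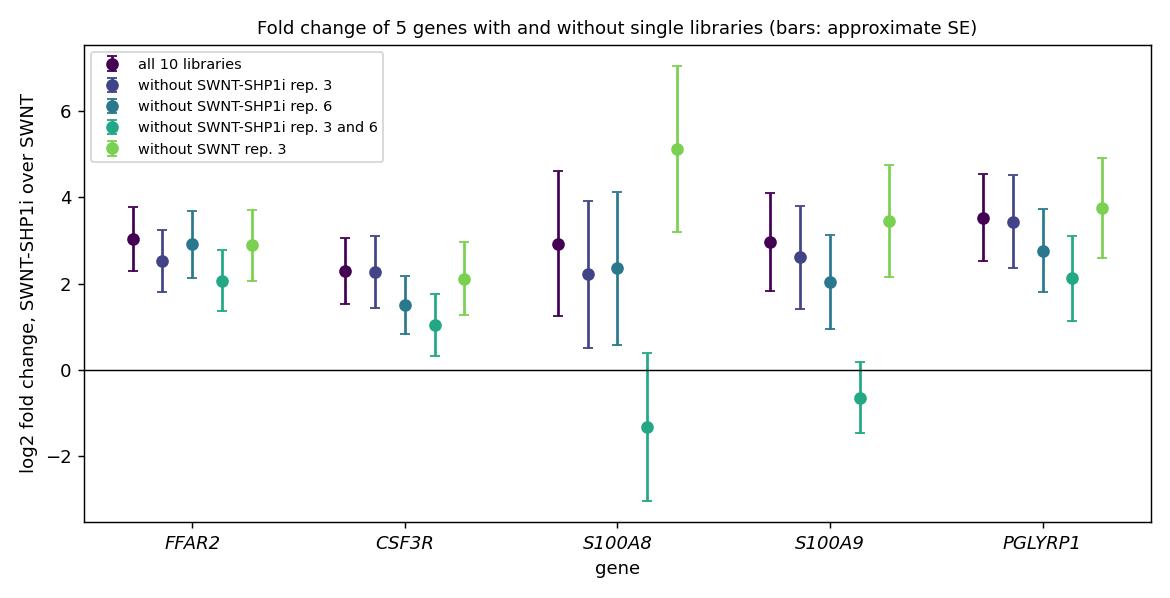
Log2 fold change of SWNT-SHP1i over SWNT (vertical axis) for the 5 genes that passed the filter, with all libraries and with named libraries left out; points are fitted values and bars their approximate SE. FFAR2, CSF3R and PGLYRP1 remain above 0 in each fit shown, while S100A8 and S100A9 are at -1.31 and -0.64 without SWNT-SHP1i replicates 3 and 6.

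A gene named FFAR2-L by its position in RefSeq (ENSSSCG00000036427) lies on the same strand at 44867509 to 44875669, within 100 kb of FFAR2. It had 55, 6, 42, 3 and 10 reads in SWNT-SHP1i replicates 1, 2, 3, 5 and 6, against 2, 18, 10, 6 and 6 in SWNT replicates 1 to 5. Its 2 highest libraries, SWNT-SHP1i replicates 1 and 3, were also high for FFAR2. Whether the counting could split reads between these similarly named genes was not tested, so the FFAR2 level is uncertain to that extent. CD22, a B-cell lectin upstream of FFAR2, averaged 6.72 ± 3.67 CPM in SWNT-SHP1i and 3.25 ± 1.31 CPM in SWNT (SD, n = 5 each). Its log2 fold change was 1.04 ± 0.45 (SE, adjusted p = 0.997 in edgeR). As for FFAR2, 4 of 5 SWNT-SHP1i libraries lay above every SWNT library. At least 3 of 5 did so for 10.7% of all genes tested, and the share for 4 of 5 was not taken. TMEM147, downstream, averaged 45.9 ± 18.97 CPM in SWNT-SHP1i and 46.8 ± 5.61 CPM in SWNT.

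By Spearman's rho of log2 CPM over the 10 libraries, the genes most like FFAR2 among 13589 named genes were FAM131B (0.952) and then CRTAP, CHD5, C16orf74 and MMP19 (0.939 each). Their Pearson r with FFAR2 was 0.813, 0.967, 0.912, 0.775 and 0.876 in that order. Over the 8 libraries without SWNT-SHP1i replicates 3 and 6 the rho was 0.905 for 4 of them and 0.952 for CRTAP. None of the 5 was on a list of neutrophil genes used here. The mean of the 8 members was most like MARCHF10 (0.976), RPLP0 (0.964), SMIM4, QARS1 and RND2 (0.952 each). With 10 libraries that share depth, tissue make-up and some animals that stand apart, such values describe the order of the libraries and nothing more.

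Other genes of the granulocyte programme were taken from lists, also made with earlier results known. The 8 lists had 70 genes that passed the filter, and 0 of them were called at an adjusted p under 0.05 in edgeR (background 0%) or in any other fit. The median log2 fold change over all 15930 genes tested was 0.01 and 50.8% of them were positive.

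Receptors and surface proteins of granulocytes were positive in 15 of 16 tested members, with a median log2 fold change of 1.17. The list was not limited to genes found in granulocytes alone. ITGAM, which macrophages share, had a log2 fold change of 0.23 (0.44 without SWNT-SHP1i replicates 3 and 6). Which cells carried the messages of this list was not tested. IL1R2, the decoy receptor for interleukin 1, averaged 1.61 ± 1.74 CPM in SWNT-SHP1i and 0.128 ± 0.124 CPM in SWNT (SD, n = 5 each), a log2 fold change of 3.60 ± 1.08 (SE). AQP9, a water and glycerol channel, averaged 2.63 ± 1.53 CPM in SWNT-SHP1i and 0.668 ± 0.562 CPM in SWNT, a log2 fold change of 1.97 ± 0.68. Without SWNT-SHP1i replicates 3 and 6 these values were 2.28 for IL1R2 and 1.91 for AQP9, and the list median was 0.58. The unadjusted p was under 0.05 for 7 higher members, against 3.49% of all genes tested, and for 1 lower member, against 1.15%. The lower member was CEACAM1, at a mean of 0.0499 CPM in SWNT-SHP1i and 0.439 CPM in SWNT. The adjusted p in edgeR was 0.997 for IL1R2 and AQP9.

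Granule proteins outside the members were tested for 11 of 25 genes, 9 positive and 2 negative, with a median of 0.52, or 0.16 without SWNT-SHP1i replicates 3 and 6. LCN2, which withholds iron from bacteria, averaged 19.01 ± 8.16 CPM in SWNT-SHP1i and 7.99 ± 4.48 CPM in SWNT. For LCN2, 4 of 5 SWNT-SHP1i libraries lay above every SWNT library, and 10.7% of all genes tested had at least 3 of 5 there. Its log2 fold change was 1.25 ± 0.44 (SE), or 0.97 without SWNT-SHP1i replicates 3 and 6. MMP9, the gelatinase, reached 221 CPM in SWNT-SHP1i replicate 6, against 0.120 to 6.30 CPM in the other 4 SWNT-SHP1i libraries and 0.0590 to 2.46 CPM in SWNT. MMP25 averaged 5.57 ± 6.64 CPM in SWNT-SHP1i and 1.05 ± 0.747 CPM in SWNT (2.40 ± 0.90, and 0.98 without the pair). The log2 fold change of MMP9 was 5.54 ± 1.79 (SE) with all libraries and -0.03 without the pair. Without SWNT-SHP1i replicate 6 alone MMP9 was at 1.23 and MMP25 at 1.37.

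Some granule messages were found almost solely in SWNT-SHP1i replicate 6, as shown by 3 list genes chosen after their values were seen. MPO, the myeloperoxidase of primary granules, stood at 3.37 CPM there and at 0 in the other 9 libraries. AZU1 stood at 4.58 CPM there and at 0 to 0.204 CPM elsewhere, and TCN1, a vitamin B12 binder of specific granules, at 14.5 CPM there and at 0 to 0.0599 CPM elsewhere. Not every granule gene had this pattern. LTF, from the same granules as TCN1, was not high in that animal. BPI was lowest there of the 10 libraries, at 0.166 CPM, and highest in SWNT-SHP1i replicate 1, at 2.34 CPM. ELANE was also highest in SWNT-SHP1i replicate 6, at 5.78 CPM, but had reads in every library, at 2.01 to 3.88 CPM elsewhere. The pig antimicrobial peptides NPG1 and PMAP-36 had 0 reads in all libraries.

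Transcription factors and enzymes of granulocytes were positive in 8 of 13 members, with a median of 0.32, or 0.09 over the 14 tested without SWNT-SHP1i replicates 3 and 6. SPI1, the myeloid regulator PU.1, averaged 86.3 ± 119 CPM in SWNT-SHP1i and 23.5 ± 9.96 CPM in SWNT, with a log2 fold change of 1.88 ± 0.72 (SE) that was 0.61 without the pair of libraries and 0.50 when SWNT-SHP1i replicate 6 alone was left out. VNN2 had one of 1.94 ± 0.94 (1.604 without the pair) and G0S2 one of -0.73 ± 0.33 (-0.48, and also -0.47 without SWNT replicate 5).

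Factors that attract granulocytes or raise their number were negative in 6 of 6 tested members, with a median of -1.02, or -1.04 without SWNT-SHP1i replicates 3 and 6. CXCL2 averaged 6.43 ± 2.57 CPM in SWNT-SHP1i and 87.5 ± 180 CPM in SWNT, where 1 animal, replicate 3, reached 409 CPM. Its log2 fold change was -3.77 ± 1.27 (SE), -3.85 without SWNT-SHP1i replicates 3 and 6, and -0.16 without that SWNT animal. CXCL8 and IL6 were likewise highest in SWNT replicate 3, at 13.5 and 17.5 CPM. Their fold changes of -1.28 and -2.41 were 0.85 and 0.35 without it (-1.59 and -2.81 without SWNT-SHP1i replicates 3 and 6). Without SWNT replicate 3 the list was thus not negative in all 6 members, and its median in that fit was not taken. CSF3, the ligand of CSF3R, averaged 1.14 CPM in SWNT-SHP1i and 1.94 CPM in SWNT, a log2 fold change of -0.77 ± 0.84 (-0.41 without SWNT-SHP1i replicates 3 and 6). IL17A had 0 reads in all libraries.

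Receptors for metabolites beside FFAR2 were positive in 2 of 6 members, with a median of -0.31, which was 0.26 without SWNT-SHP1i replicates 3 and 6. The lactate receptor HCAR1 averaged 7.87 ± 6.58 CPM in SWNT-SHP1i and 15.1 ± 6.14 CPM in SWNT (log2 fold change -0.93 ± 0.69 SE). That of HCAR1 was -0.37 without SWNT-SHP1i replicates 3 and 6 and -1.43 without SWNT-SHP1i replicate 5. GPR35 had a log2 fold change of 0.79 ± 0.46, which was 0.20 without SWNT-SHP1i replicate 6 and 0.25 without the pair. FFAR4, a receptor for long-chain fatty acids, had one of -0.67 ± 1.19, which was -0.36 without the pair and -0.29 without SWNT replicate 4.

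Receptors that calgranulins bind had a median of 0.27 over 5 members, 3 of them positive, or 0.30 without SWNT-SHP1i replicates 3 and 6. TLR4 averaged 22.6 ± 7.13 CPM in SWNT-SHP1i and 13.2 ± 7.43 CPM in SWNT (log2 fold change 0.78 ± 0.37 SE, and 0.51 without the pair). AGER had a log2 fold change of 1.34 ± 0.82, which was 0.30 without the pair and 0.79 to 1.95 with 1 library left out. MCAM had one of -0.63 ± 0.33, which was -0.31 without the pair. Other S100 genes were positive in 8 of 10 members, with a median of 0.54, which was -0.10 without SWNT-SHP1i replicates 3 and 6. S100A4 averaged 35.2 ± 63.4 CPM in SWNT-SHP1i and 7.18 ± 1.16 CPM in SWNT, and its log2 fold change of 2.29 ± 0.93 was -0.07 without SWNT-SHP1i replicate 6 and -0.12 without the pair. S100A10 had one of 0.92 ± 0.37, which was 0.60 without SWNT-SHP1i replicate 6 and 0.30 without the pair. S100A1 had one of -0.59 ± 0.25, or -0.56 without the pair, while S100G had 0 reads. Of the relatives of PGLYRP1 and LTF, PGLYRP2 had a log2 fold change of -0.95 ± 0.89, or -0.95 without the pair. TF had one of -2.46 ± 1.51, or -1.77 without the pair and -6.29 without SWNT-SHP1i replicate 5. MELTF had one of 1.41 ± 1.25, or 0.51 without the pair and 0.10 without SWNT-SHP1i replicate 6, and PGLYRP3 had 0 reads.

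Markers of other cells are set beside the members here. Summed monocyte and macrophage markers (15 of 15 with reads) ranged from 552 to 2596 CPM in SWNT-SHP1i and from 546 to 1394 CPM in SWNT. In SWNT-SHP1i replicates 1, 2, 3, 5 and 6 they summed to 2034, 1690, 1933, 552 and 2596 CPM. VCAN, a matrix gene that artery wall cells also express, made up 585 CPM of this in replicate 1 and 383 CPM in replicate 3. Over the other 14 markers, in a sum added after the values were seen, the same libraries had 1449, 1559, 1550, 483 and 2372 CPM, so replicate 2, with 1.76 CPM of FFAR2, was above replicates 1 and 3, and the order of replicates 1 to 3 did not follow FFAR2, CSF3R or PGLYRP1. Among SWNT libraries, replicate 1 had the highest sum of all 15 markers, 1394 CPM, with 1.16 CPM of FFAR2. Without VCAN, the other 14 markers summed to 1298, 462, 482, 703 and 599 CPM in SWNT replicates 1 to 5. CSF3R, at 5.99, 1.83, 1.61, 4.04 and 3.05 CPM in these libraries, had the same order apart from replicates 2 and 3. FFAR2 and PGLYRP1 had another order in SWNT. SWNT-SHP1i replicate 6 had the highest marker sum and the most CSF3R and PGLYRP1, 43.5 and 27.0 CPM. SWNT-SHP1i replicate 5 had the lowest marker sum of its group and the least FFAR2, CSF3R and PGLYRP1 of that group. Summed smooth muscle markers were lowest in the 3 libraries with most FFAR2, at 19977, 31027 and 30407 CPM in replicates 6, 1 and 3. The part of these cells in the results was not tested.

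Red cell markers (8 of 11 found, all with reads) ranged from 27.8 to 247 CPM in SWNT-SHP1i and from 49.2 to 1347 CPM in SWNT. The highest sum was in SWNT replicate 3, the SWNT library with most S100A8, S100A9 and S100A12, and replicate 6 of SWNT-SHP1i had 73.0 CPM. Platelet markers (7 of 9 found) ranged from 10.7 to 23.998 CPM in SWNT-SHP1i and from 11.02 to 22.3 CPM in SWNT. Surface epithelium markers (10 of 12 found, 9 with reads) ranged from 10.2 to 28.3 CPM in SWNT-SHP1i and from 9.82 to 56.3 CPM in SWNT, with KRT4 at 0 throughout and KRT5 at 0 in 9 libraries. Eosinophil and mast cell markers (8 of 10 found, 7 with reads, CPA3 at 0) ranged from 37.2 to 55.7 CPM in SWNT-SHP1i and from 19.8 to 91.2 CPM in SWNT. T and NK lymphocyte markers (10 of 10) ranged from 19.9 to 180 CPM in SWNT-SHP1i and from 19.0 to 63.8 CPM in SWNT, with the highest sum in SWNT-SHP1i replicate 6. B and plasma cell markers (7 of 7) ranged from 7.04 to 29.1 CPM in SWNT-SHP1i and from 8.91 to 29.7 CPM in SWNT. Endothelial markers (7 of 7) ranged from 514 to 1372 CPM in SWNT-SHP1i and from 348 to 1354 CPM in SWNT. Whether blood or any of these cells contributed to the members was not tested.

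**Figure D4:**
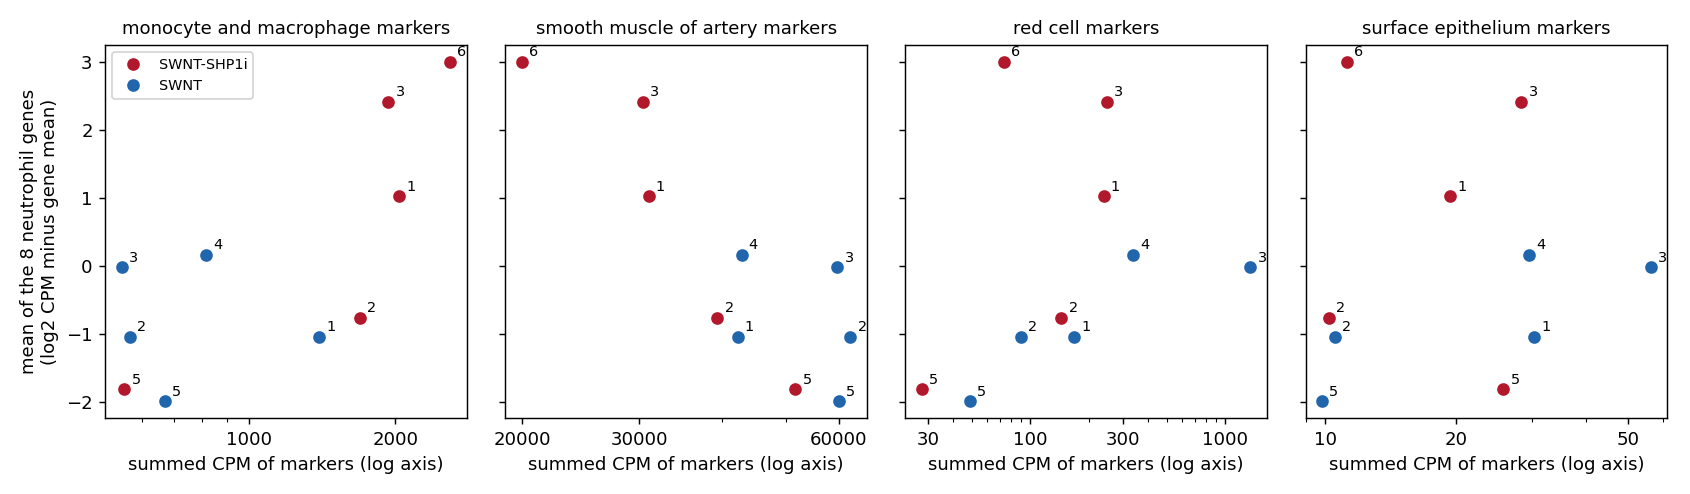
Mean of the 8 neutrophil genes (vertical axis, log2 CPM minus each gene's mean) against the summed CPM of 4 marker lists (horizontal axes, logarithmic) in SWNT-SHP1i (red) and SWNT (blue) libraries; each point is 1 animal with its replicate number. The 4 lists are those of macrophages, smooth muscle, red cells and surface epithelium. SWNT-SHP1i replicates 6, 3 and 1 have the highest member means and the lowest smooth muscle sums, their rank above replicate 2 in the macrophage sum rests on VCAN for replicates 1 and 3, and SWNT replicate 3 has the highest red cell sum, 1347 CPM.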

How the data were processed

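Poly-A RNA sequencing of carotid artery gave 1 deposited table of raw read counts per gene for 10 animals, with exon lengths, per the file headers. Trim Galore, STAR and DESeq2 and the build Sscrofa11.1 are named in the submitters' processing notes. Which program counted the reads, with which annotation, strand and pair settings, is not given in the sources used. Low counts in the deposited table are mostly even, so both mates of a pair may have been counted, and a count is taken as a read and not as an independent molecule.

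Symbols came from the table (17532 genes), a table of identifiers (223) or a RefSeq gene at the same position sharing at least 0.5 of the joint span (842). Counts were filtered with filterByExpr (minimum count 10) and scaled by TMM, and SWNT-SHP1i was tested against SWNT with edgeR 4.0.16 (R 4.3.3, robust quasi-likelihood, no covariates, Benjamini-Hochberg adjustment over 15930 genes, threshold 0.05). CPM use TMM-scaled library sizes. Positive log2 fold changes mean a higher level in SWNT-SHP1i and carry an approximate SE (the fold change over the square root of F). The procedure was tested on simulated data. Library totals ranged from 27593564 to 47718854 reads, and the limits on zeros cover counting error only. Replicates are separate animals by number.

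The members and lists were chosen with earlier results of these data known. Text names all 8 members, the 3 list genes with the smallest p in each list, genes with 0 reads, and the 5 genes most like FFAR2 or the members' mean, with marker genes beside them. CD22, TMEM147, CSF3, CEACAM1, MPO, AZU1, TCN1, BPI and ELANE were chosen after their values were seen. So were the genes named for sharing an adjusted p with FFAR2 and PGLYRP1 in DESeq2. One gene that the rule names is not reported here. Alternatives were RLE scaling, other filters, DESeq2 1.42.0, a term for the range of animal numbers (SWNT-SHP1i replicate 3 and SWNT replicate 3 against the other 8), a threshold of 0.1, each library left out, and SWNT-SHP1i replicates 3 and 6 left out.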

Additional observations from a re-analysis of the deposited data

Results flagged for a closer look

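Among 16 sets of 5 values (8 genes in 2 groups), 1 held a library far from the others on the log2 CPM scale, and chance gives about 1 in 20. MMP8 was lowest in SWNT-SHP1i replicate 3, at -4.21 log2 CPM from 0 reads, with the next library at -2.18. The other 4 SWNT-SHP1i libraries had 4 to 10 reads, so the gap is that between no read and a few.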

How the results depend on the processing

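Of 20 alternatives, 1 called any gene: DESeq2 with a threshold of 0.1, a pair of choices added after seeing the data, called 15 genes, members FFAR2 and PGLYRP1 among them, and 0 list members. The others called 0 genes and 0 list members, with a smallest adjusted p of 0.063 (DESeq2). FFAR2 and PGLYRP1 shared that value with other genes of the 15. In the alternatives that refitted the data, 421 to 1668 genes had an unadjusted p under 0.05, against 739 with the main settings. The number at an unadjusted p under 0.05 was 1668 with no filter, 1583 without SWNT-SHP1i replicate 5, 421 without SWNT replicate 2 and 436 without SWNT replicate 5, and the cause was not tested. With 1 library left out, the log2 fold change ran from 2.53 to 3.32 for FFAR2, 1.51 to 2.62 for CSF3R, 2.77 to 3.84 for PGLYRP1, 2.22 to 5.12 for S100A8 and 2.03 to 3.46 for S100A9. Without SWNT-SHP1i replicates 3 and 6, S100A8 reversed to -1.31 and S100A9 to -0.64. With a term for the range of animal numbers, S100A8 was at 3.94, against 2.93, and FFAR2 at 2.84. Over the animals with B9 numbers only and with read counts halved, both added after seeing the data, FFAR2 gave 2.39 and 3.02, and S100A8 fell below the filter. No paired analysis was possible because the labels give no replicate numbers shared by the groups. Depth limits S100A12, LTF and MMP8, which had 10 or more reads in 4, 4 and 3 of 10 libraries.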
